A study of Homo sapiens with 4 samples.

Results

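Epithelial, keratin and EMT genes were examined as a set of 10 genes that were read from the count table by symbol: the keratins KRT8, KRT18, KRT19 and KRT7, the surface proteins EPCAM, CDH1 and CDH2, the filament protein VIM, and the transcription factors ZEB1 and SNAI2. All 10 were present among the 59652 genes used. The human hepatocellular carcinoma (HCC) cell lines Huh7 and PLC, both labelled wild type (WT), were grown in glucose-free medium with serum and antibiotics, to which glucose was added at 5 mM (low glucose) or 25 mM (high glucose) for 48 h. RNA depleted of rRNA was sequenced in 4 libraries, 1 for each line and concentration, so no condition has a replicate and each line stands for 1 tumour grown in culture. The libraries held 21376239 (Huh7, low glucose), 30085303 (Huh7, high glucose), 30279716 (PLC, low glucose) and 16049686 (PLC, high glucose) assigned reads. Levels are given as reads and as FPKM, the reads of a gene scaled to the length of its exons and to the assigned reads of the library.

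Keratins form the intermediate filaments of epithelial cells and assemble as pairs of a type I and a type II protein. KRT8 (type II) and KRT18 (type I) make up the pair of hepatocytes, whereas KRT7 and KRT19 are added in bile duct cells. In an epithelial-mesenchymal transition (EMT), cells lose junction proteins such as E-cadherin (CDH1) and gain N-cadherin (CDH2) and vimentin (VIM), and repressors such as ZEB1 and SNAI2 bind E-boxes near the CDH1 start. Hepatocytes are an epithelium that carries both E-cadherin and N-cadherin, and EPCAM marks bile duct and hepatic progenitor cells.

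On GRCh38 and in the annotation of the table, the genes lie as follows. KRT7 (chr12:52232520-52252186, plus strand), KRT8 (chr12:52897187-52949954, minus strand) and KRT18 (chr12:52948871-52952906, plus strand) share a chromosome, and the exons of KRT8 and KRT18 overlap by 525 bases on opposite strands. KRT19 is at chr17:41523617-41528308 on the minus strand. EPCAM is at chr2:47345158-47387601 on the plus strand, CDH1 at chr16:68737292-68835541 on the plus strand and CDH2 at chr18:27932879-28177946 on the minus strand. VIM (chr10:17228241-17237593) and ZEB1 (chr10:31318495-31529814) are both on the plus strand.

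The promoter table of RefSeq (GRCh38.p14) had an entry for 4 of the 10 genes, with 11 start sites in all, and 3 of these sites were the start of the canonical transcript in GENCODE release 44. They belong to VIM, ZEB1 and CDH2, the genes of the mesenchymal side of EMT, of which VIM differed between the lines while ZEB1 and CDH2 did not pass the test. The 250 bases before each start are shown 5′ to 3′ in the direction of transcription, at chr10:17227991-17228240 (VIM, plus strand), chr10:31318966-31319215 (ZEB1, plus strand) and chr18:28177131-28177380 (CDH2, minus strand). Capitals mark 2 motifs on either strand, the E-box that ZEB and SNAI factors are known to bind, with the letters CAGGTG or, on the opposite strand, CACCTG, and the GC box, with the letters GGGCGG or, on the opposite strand, CCGCCC. The motifs do not overlap each other in these windows.
VIM: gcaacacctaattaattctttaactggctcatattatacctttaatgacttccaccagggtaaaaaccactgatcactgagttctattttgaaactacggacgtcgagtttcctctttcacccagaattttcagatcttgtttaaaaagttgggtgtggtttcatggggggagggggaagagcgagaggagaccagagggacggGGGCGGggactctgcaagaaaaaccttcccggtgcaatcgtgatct
ZEB1: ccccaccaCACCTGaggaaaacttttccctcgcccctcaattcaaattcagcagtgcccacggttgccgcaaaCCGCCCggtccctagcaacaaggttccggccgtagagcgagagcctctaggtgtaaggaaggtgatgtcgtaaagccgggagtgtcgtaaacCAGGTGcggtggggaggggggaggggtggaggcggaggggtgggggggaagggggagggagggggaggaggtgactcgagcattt
CDH2: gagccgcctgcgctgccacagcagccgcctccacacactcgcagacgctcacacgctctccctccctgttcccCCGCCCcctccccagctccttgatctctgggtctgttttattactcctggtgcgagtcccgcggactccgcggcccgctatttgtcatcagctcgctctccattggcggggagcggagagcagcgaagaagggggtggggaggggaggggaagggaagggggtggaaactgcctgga

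The VIM window held 1 GC box, which began 46 bases before the start, and no E-box. The ZEB1 window held 2 E-boxes, which began 242 and 85 bases before the start, and 1 GC box at 177 bases. The CDH2 window held 1 GC box at 177 bases and no E-box. Neither TATAAA nor TTTATA, the letters of a TATA box, was found in the 3 windows. Of all 35116 RefSeq windows of the same length, 17.5% held the E-box, 42.6% the GC box and 10.7% the TATA box. A match of letters is a description and was not tested as a binding site.

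**Figure D1:**
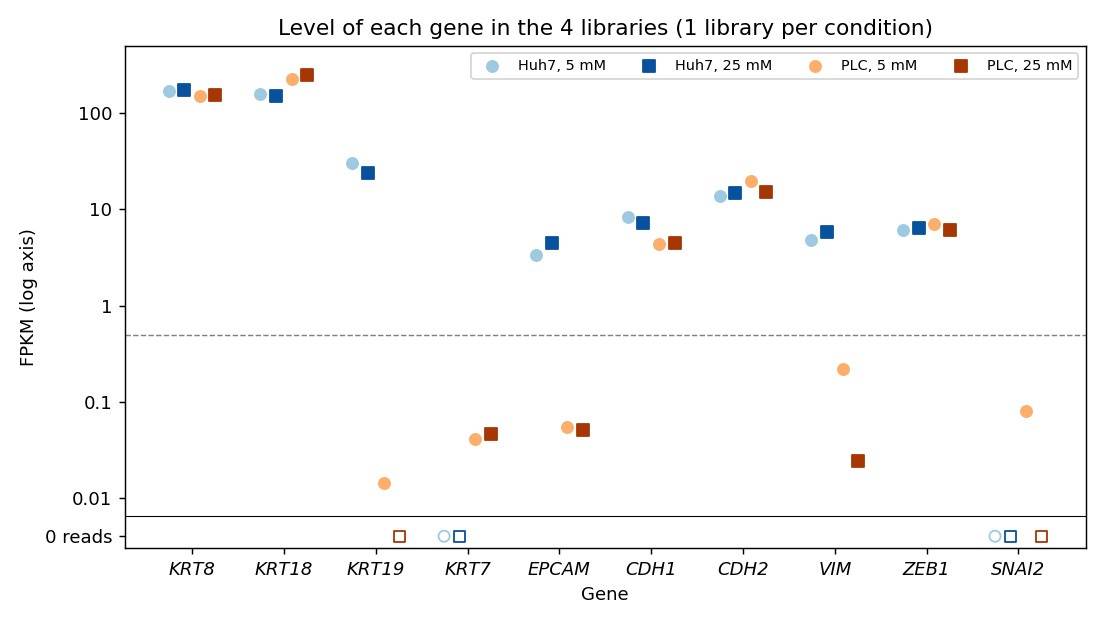
Level of each of the 10 genes (FPKM, log axis) in the 4 libraries. Colours and shapes mark the line and glucose concentration, open symbols on the lowest level mark 0 reads, and the dashed line marks 0.5 FPKM. KRT8 and KRT18 lie at the top in every library, whereas KRT19, EPCAM and VIM fall below the dashed line in both PLC libraries.

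KRT8 and KRT18 were the most abundant of the 10 genes in every library and made up 83.6% to 89.6% of the reads assigned to the set. KRT8 had 24998 reads in Huh7 at 5 mM, 35832 in Huh7 at 25 mM, 31560 in PLC at 5 mM and 17144 in PLC at 25 mM, which gave levels of 169.9, 173, 151 and 155 FPKM. KRT18 had 10433, 13837, 21291 and 12209 reads in the same order, or 159, 149.9, 229 and 248 FPKM. Both PLC libraries were thus above both Huh7 libraries for KRT18 and below them for KRT8. Each of these keratins had a higher FPKM than at least 99.3% of the 23217 genes that passed the filter on low counts. All 10 genes together took 0.198% to 0.204% of the assigned reads.

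The order of the levels below this pair differed between the lines. In both Huh7 libraries KRT19 came next, followed by CDH2, CDH1, ZEB1, VIM and EPCAM, with no read of KRT7 or SNAI2. In both PLC libraries CDH2 followed KRT18 and KRT8, then ZEB1 and CDH1, and the other 5 genes were below 0.5 FPKM. With 2 libraries a line, neighbours were taken as apart where their ranges did not overlap. By that measure every neighbour was apart in Huh7, where ZEB1 (6.12 and 6.42 FPKM) lay above VIM (4.84 and 5.77 FPKM), and all of the first 5 were apart in PLC. Over exons of the canonical transcript alone, VIM (11.6 and 13.9 FPKM) would stand above CDH1 (10.6 and 9.16 FPKM) in Huh7, so the order of these genes depends on the length used.

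Of the 8 genes that could be tested, 4 were lower in PLC than in Huh7 and 1 was higher. The difference was estimated with edgeR's quasi-likelihood test on the counts of all 23217 genes, with terms for line and glucose, and was called at a Benjamini-Hochberg adjusted p under 0.05. KRT19, EPCAM, VIM and CDH1 were lower in PLC and KRT18 was higher, 5 of 8 in all, against 43.0% of all genes tested. For the directions, 4 of 8 were lower against 21.9% of all genes, and 1 of 8 was higher against 21.1%. The median log2 difference (PLC over Huh7) was -0.48 over the 8 genes and -0.03 over all genes tested, and the median size of the difference, sign aside, was 0.87 over all genes. KRT19, EPCAM and VIM passed the filter through their Huh7 libraries alone, so their differences were bound to lie in that direction. The filter did not set their size, as the log2 differences with no filter on low counts were -11.26, -6.09 and -5.40. KRT7 and SNAI2 did not pass the filter. In bulk RNA, fewer cells of a type and less RNA per cell cannot be told apart.

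The p-values rest on 4 libraries with 1 residual degree of freedom and on a spread that the quasi-likelihood fit borrows from all genes tested. A small p-value is therefore not a measure of the spread of that gene between cultures. No source says that the libraries came from separate cultures, and the 2 libraries of a line differ in glucose. Counts of 1 to 20 reads were even in 60.3% to 61.9% of cases, and 1-read genes were fewer than 2-read genes in each library. Whether both mates of a pair were counted was not tested. Ratios of single libraries carry 95% Clopper-Pearson intervals, which cover counting error only and are too narrow if mates were counted separately.

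**Figure D2:**
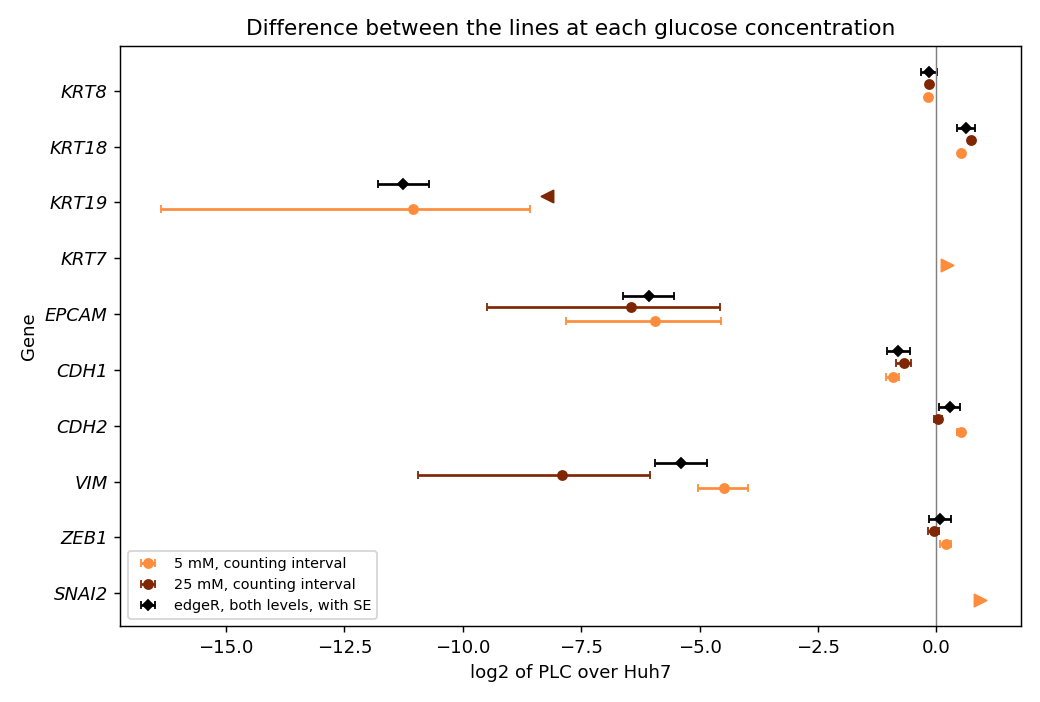
Difference between the lines as log2 of PLC over Huh7 for each gene. Circles give the ratio of library-size-scaled reads at 5 and at 25 mM with 95% counting intervals. Triangles give bounds set against 3 reads where a library had none. Diamonds give the edgeR estimate over both concentrations with a standard error worked back from the test statistic. KRT19, EPCAM and VIM lie far to the left at both concentrations, and KRT8, CDH2 and ZEB1 lie near 0.

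KRT19, a type I keratin of bile duct cells and of some HCC, showed the widest gap between the lines. It had 1504 and 1680 reads in Huh7 at 5 and 25 mM (30.1 and 23.9 FPKM), 1 read in PLC at 5 mM and 0 in PLC at 25 mM. At 5 mM the ratio of Huh7 to PLC was 2130 with a counting interval of 382 to 84203, and at 25 mM KRT19 was at least 299-fold lower in PLC, set against 3 reads. The log2 difference from edgeR was -11.25 with a standard error of 0.53 and an adjusted p of 5.16e-09. Here and below, the standard error (SE) of edgeR was worked back from the test statistic, not estimated by the fit. DESeq2 gave -11.49 with a standard error of 1.36. Of all genes tested, 99.3% had a smaller difference. The value of the edgeR fit depends on a prior count because PLC had almost no reads. It was -13.49 without PLC at 5 mM and -10.64 without PLC at 25 mM.

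KRT18 was higher in PLC at both concentrations. Its PLC to Huh7 ratio was 1.44 (1.41 to 1.48) at 5 mM and 1.65 (1.61 to 1.69) at 25 mM, and the log2 difference was 0.63 (SE 0.19, edgeR adjusted p = 0.0153). KRT8 was not called, with ratios of 0.891 (0.877 to 0.906) and 0.897 (0.881 to 0.913) and a log2 difference of -0.16 (SE 0.18, edgeR adjusted p = 0.511). The partners of the hepatocyte pair thus lay on opposite sides of equality, although only KRT18 passed the test and the difference between the partners was not tested. Reads that the count table gave to processed pseudogenes were 1.28% to 2.60% of the KRT8 reads (51 pseudogenes) and 2.72% to 5.45% of the KRT18 reads (67 pseudogenes).

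KRT7, the type II partner of KRT19 in bile duct cells, was almost absent from both lines. It had 0 reads in both Huh7 libraries, 5 in PLC at 5 mM (0.0413 FPKM) and 3 in PLC at 25 mM (0.0467 FPKM). The 5 reads set a bound of at least 1.18-fold higher in PLC at 5 mM, and no fold can be given at 25 mM.

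The balance of keratin types, summed over the whole family, differed between the lines. Summed over the 28 type I genes, keratin FPKM was 198 and 184 in Huh7 at 5 and 25 mM and 329 and 376 in PLC, while the 26 type II genes summed to 170.0 and 173 in Huh7 and 156 and 156 in PLC. The ratio of type I to type II was therefore 1.16 and 1.06 in Huh7 and 2.11 and 2.41 in PLC. Its level depends on the exon lengths used, and it was not computed with canonical lengths. With those lengths, KRT8 was at 656 and 668 FPKM in Huh7, KRT18 at 345 and 325, and KRT19 at 50.6 and 40.2. In the sums above, KRT18 made up 80.4% and 81.5% of type I in Huh7 and 69.6% and 66.0% in PLC. KRT8 was 97.0% to 99.99% of the type II sum in all libraries. KRT19 supplied 15.2% and 13.0% of type I in Huh7. In PLC, KRT23 gave 14.5% and 24.4% of the sum and KRT20 gave 11.03% and 7.68%. The FPKM ratio of KRT8 to KRT18 was 1.07 and 1.16 in Huh7 and 0.661 and 0.626 in PLC. With the length of the canonical transcripts these ratios became 1.90 and 2.05 in Huh7 and 1.17 and 1.11 in PLC, so KRT8 was then the more abundant partner in all libraries, and lower in PLC than in Huh7 relative to KRT18 with either length.

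**Figure D3:**
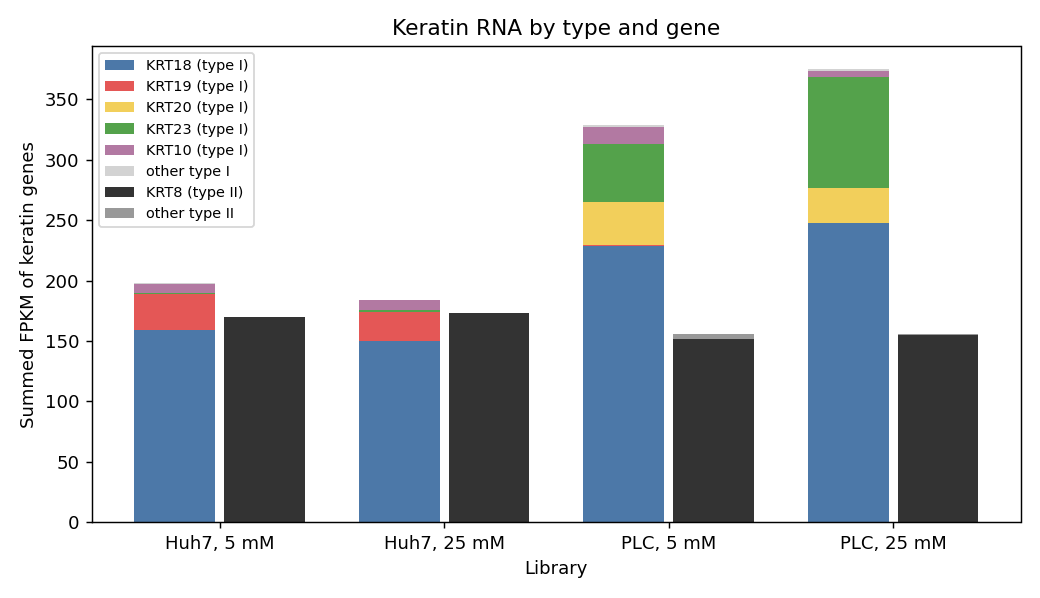
Summed FPKM of keratin genes in each library, with type I keratins in the left bar and type II in the right bar. Colours mark the genes, and the bars start at 0. KRT19 is visible in the Huh7 bars only, KRT20 is visible in the PLC bars only, and KRT8 is nearly all of the type II bar in each library.

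Among the surface proteins, EPCAM and CDH1 were lower in PLC, and CDH2 was not called. EPCAM, an adhesion molecule of progenitor and bile duct cells, had 173 and 326 reads in Huh7 (3.33 and 4.46 FPKM) and 4 and 2 reads in PLC (0.0544 and 0.0513 FPKM). Both Huh7 libraries were above both PLC libraries. EPCAM was 61.3-fold lower in PLC at 5 mM (23.5 to 227) and 87.0-fold lower at 25 mM (23.9 to 721), with a log2 difference of -6.07 (SE 0.54, edgeR adjusted p = 1.10e-06).

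CDH1 encodes E-cadherin, the calcium-dependent adhesion protein of adherens junctions. It had 1085 and 1326 reads in Huh7 (8.32 and 7.22 FPKM) and 809 and 440 in PLC (4.38 and 4.49 FPKM), so both Huh7 libraries were higher. The PLC to Huh7 ratio was 0.526 (0.480 to 0.577) at 5 mM and 0.622 (0.557 to 0.693) at 25 mM, and the log2 difference was -0.80 (SE 0.25, edgeR adjusted p = 0.0187). This is close to the middle of the genes tested, of which 47.2% had a smaller difference. CDH1 and KRT18 lost their calls when a Huh7 library was left out, in edgeR fits with a term for line only, since terms for line and glucose leave no residual degree of freedom with 3 libraries. Without Huh7 at 5 mM the log2 difference was -0.68 for CDH1 (edgeR adjusted p = 0.294) and 0.69 for KRT18 (0.211), and without Huh7 at 25 mM it was -0.90 (0.159) and 0.59 (0.301). The sizes thus stayed near those of all 4 libraries while the standard errors grew.

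CDH2 encodes N-cadherin. It had 2537 and 3849 reads in Huh7 (13.8 and 14.9 FPKM) and 5129 and 2105 in PLC (19.7 and 15.3 FPKM). PLC at 5 mM stood above the other 3 libraries, which lay close together. The PLC to Huh7 ratio was 1.43 (1.36 to 1.497) at 5 mM and 1.03 (0.972 to 1.08) at 25 mM, and the log2 difference of 0.28 (SE 0.23) had an edgeR adjusted p of 0.348. Without PLC at 25 mM it was 0.54 with an adjusted p of 0.0332, and was then called. CDH1 was 37.6% and 32.6% of the summed FPKM of CDH1 and CDH2 in Huh7 and 18.2% and 22.7% in PLC, so N-cadherin RNA exceeded E-cadherin RNA in all 4 libraries, also with canonical lengths.

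VIM, the intermediate filament protein of mesenchymal cells, was lower in PLC, as KRT19 and EPCAM were. It had 535 and 899 reads in Huh7 (4.84 and 5.77 FPKM), 34 in PLC at 5 mM (0.217 FPKM) and 2 in PLC at 25 mM (0.0241 FPKM). Huh7 held the higher level at both concentrations, and the PLC libraries differed from each other. VIM was 22.3-fold lower in PLC at 5 mM (15.8 to 32.5) and 239.8-fold lower at 25 mM, where 2 reads gave an interval of 66.2 to 1983. The log2 difference was -5.39 (SE 0.55, edgeR adjusted p = 4.54e-06), and it moved to -7.77 without PLC at 5 mM and to -4.52 without PLC at 25 mM, called in both cases. VIM-AS1, an antisense gene that shares 641 exon bases with VIM, had 4 reads in Huh7 at 5 mM and none elsewhere.

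ZEB1, a zinc finger repressor of epithelial genes, did not pass the test and had the smallest log2 difference of the 8 genes. It had 1131 and 1671 reads in Huh7 (6.12 and 6.42 FPKM) and 1834 and 857 in PLC (7.002 and 6.17 FPKM), and the ranges of the lines overlapped. The log2 difference was 0.07 (SE 0.24, edgeR adjusted p = 0.828), and 4.94% of all genes tested had a smaller difference. Its antisense neighbour ZEB1-AS1, with 396 shared exon bases, had 64 and 69 reads in Huh7 and 418 and 138 in PLC, and the strand setting of the counting is not given in the sources used here. SNAI2, a related repressor on the minus strand at chr8:48917598-48921740, had 8 reads in PLC at 5 mM (0.0805 FPKM) and 0 in the other libraries, which sets a bound of at least 1.88-fold higher in PLC at 5 mM. For a count of 0, the limit of 3 reads lies between 0.0991 and 0.187 CPM.

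High against low glucose moved none of the 10 genes past the thresholds that the study used for lncRNAs, FPKM over 0.5 and an FPKM ratio over 1.5 or under 0.67. The FPKM threshold was taken here as met when at least 1 library of the line passed it. With 0.1 added to each FPKM, 0 of the 8 genes over 0.5 FPKM in Huh7 passed, against 27.8% of the 21864 genes over that level. In PLC 0 of 5 passed, against 43.3% of 21749. The part of the glucose difference that both lines share was tested with edgeR, and 0 of 8 genes were called against 0.379% of all 23217 genes. At an unadjusted p under 0.05 in edgeR there were 0 of 8, against 1979 of all 23217 genes. DESeq2 and limma also called 0. The shared log2 differences ran from -0.53 (VIM, SE 0.51) to 0.29 (EPCAM, SE 0.46). Ratios within a line have 1 library on each side and no replicate check.

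**Figure D4:**
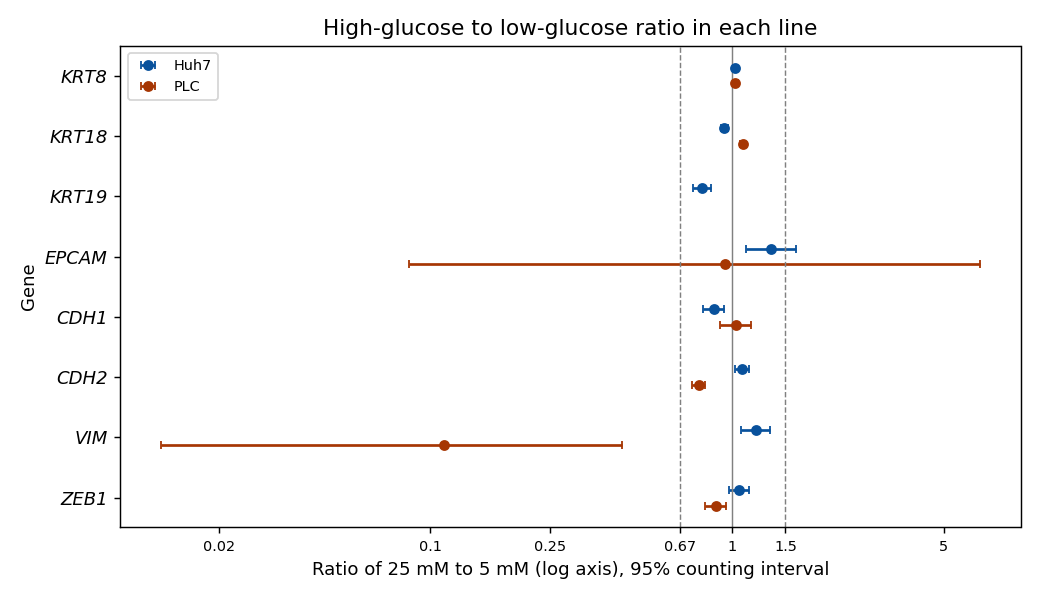
Ratio of 25 mM to 5 mM glucose (log axis) in Huh7 and PLC for the 8 tested genes, with 95% counting intervals and dashed lines at 0.67 and 1.5. The KRT8 ratios of both lines lie next to 1, CDH2 and ZEB1 lie above 1 in Huh7 and below it in PLC, and the PLC ratio of VIM rests on 34 and 2 reads. KRT19 has no PLC ratio.

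In Huh7 the keratins and CDH1 had ratios near or under 1 and the other genes ratios over 1. The ratio of high to low glucose was 1.02 (1.002 to 1.04) for KRT8, 0.942 (0.919 to 0.967) for KRT18 and 0.794 (0.740 to 0.851) for KRT19. It was 0.868 (0.801 to 0.942) for CDH1, 1.08 (1.02 to 1.13) for CDH2, 1.34 (1.11 to 1.62) for EPCAM, 1.19 (1.07 to 1.33) for VIM and 1.05 (0.973 to 1.13) for ZEB1. The interval left out 1 for 7 of 8 genes, and for 6 with counts halved to allow for separate mates. The share over all genes was not counted. With many reads an interval leaves out 1 even for a small shift, as for KRT8. EPCAM had the largest ratio and KRT19 the smallest. Scaling by TMM instead of library totals shifted the log2 ratios in Huh7 by -0.04, which put KRT8 at 0.991.

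In PLC the ratio was 1.02 (1.01 to 1.04) for KRT8, 1.08 (1.06 to 1.11) for KRT18, 1.03 (0.912 to 1.15) for CDH1, 0.774 (0.736 to 0.815) for CDH2 and 0.882 (0.812 to 0.957) for ZEB1. VIM went from 34 to 2 reads, a ratio of 0.111 (0.0129 to 0.433, or 0.00266 to 0.708 with halved counts), below the level that the study's thresholds ask for. EPCAM (4 and 2 reads) had a ratio of 0.943 with an interval from 0.0853 to 6.58, and KRT7 (5 and 3 reads) 1.13 (0.176 to 5.82). CDH2 therefore had the lowest ratio of the genes over 0.5 FPKM. The interval left out 1 for 5 of 8 genes, and for 4 with halved counts, with the share over all genes again not counted. TMM shifted the log2 ratios in PLC by -0.12, which put KRT8 at 0.943, KRT18 at 0.995, CDH1 at 0.945 and CDH2 at 0.714. The direction of KRT8 in both lines and of KRT18 and CDH1 in PLC thus depended on the scaling.

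The ratios of the lines were set against each other for the 7 genes with reads in all 4 libraries. The PLC ratio divided by the Huh7 ratio was 0.718 (0.668 to 0.772) for CDH2, 0.840 (0.751 to 0.940) for ZEB1 and 0.0931 (0.0108 to 0.366) for VIM. It was 1.15 (1.11 to 1.19) for KRT18, 1.18 (1.02 to 1.36) for CDH1, 1.01 (0.982 to 1.03) for KRT8 and 0.707 (0.0633 to 4.99) for EPCAM. The interval left out 1 for 5 of the 7 genes, and for 4 with halved counts, and the share over all genes was not counted here either. The quotient was under 1 for CDH2, VIM and ZEB1 and over 1 for KRT18 and CDH1, with counting error alone considered. Under TMM the interval of CDH1 (0.967 to 1.29) held 1 and that of KRT8 (0.928 to 0.975) did not. With 1 library for each condition the spread between cultures was not measured.

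The lists of related genes place these values. Of the genes named below, DSG2, DSC2, CLDN6, SPINT1, GRHL2, MAL2, CDH8, TCF4, COL1A2 and FSTL1 passed the filter through Huh7 alone. SPINT2, TWIST2, ETS1 and INA passed it through PLC alone. Their directions were thus fixed by the filter, and the numbers called in each list include such genes. Of 30 epithelial junction and polarity genes, 28 were tested, 8 were higher and 10 lower in PLC (against 21.1% higher and 21.9% lower over all genes tested), and the median log2 difference was 0.01, against -0.03 over all genes tested. The desmosomal cadherins DSG2 and DSC2 were lower. DSG2 had 1486 and 2145 reads in Huh7 and 2 and 2 in PLC (log2 -9.55, SE 0.44, edgeR adjusted p = 4.44e-09), and DSC2 was at least 268-fold and 175-fold lower at 5 and 25 mM, with 0 reads in PLC. Tight junction claudins split, with CLDN6 lower (16.0 and 15.2 against 0.209 and 0.179 FPKM) and CLDN7 higher (0.375 and 0.520 against 12.3 and 11.1 FPKM) in PLC. CTNNB1, the beta-catenin that binds both cadherins, was not called (56.8, 61.9, 61.6 and 55.3 FPKM, log2 -0.02), nor was CLDN1 (log2 0.06). Of 20 epithelial surface and splicing genes, 14 were tested, with 5 higher and 4 lower, against 21.1% higher and 21.9% lower over all genes tested, and a median of -0.01. SPINT2, a protease inhibitor of epithelia, had 0 reads in Huh7 and 1151 and 830 in PLC, at least 271-fold and 519-fold higher, whereas SPINT1 (72 and 27 reads), GRHL2 (11 and 13) and nearly all of MAL2 (40.7 and 39.4 FPKM) were found in Huh7. The splicing regulator ESRP2 and the adaptor subunit AP1M2 were not called.

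Of 50 keratins outside the 4 above, 34 had 0 reads in all libraries and 6 were tested, of which 5 were higher in PLC and 0 lower, against 21.1% higher and 21.9% lower over all genes tested (KRT10 was not called, log2 0.15). The median log2 difference was 5.81, or 5.66 with genes at 0 in a line set to their bound. KRT20, KRT40, KRT80 and KRT81 passed the filter through PLC alone, so their direction, and with it that of the median, was fixed by the filter. KRT23 had 0.932 and 1.58 FPKM in Huh7 and 47.8 and 91.7 in PLC (log2 5.78, SE 0.27, edgeR adjusted p = 5.26e-09) and was past the study's glucose thresholds in both lines (ratios of 1.62 and 1.92). KRT20, an intestinal type I keratin, had 0 and 2 reads in Huh7 and 2102 and 885 in PLC (log2 10.45, SE 0.53, edgeR adjusted p = 9.23e-09). KRT40 (68 and 57 reads) had 0 reads in Huh7, and KRT80 had 182 and 12 reads in PLC against 0 and 2. KRT81, named after its values were seen as the remaining called keratin, had 122 and 8 reads in PLC against 2 and 0 (log2 5.55). KRT86 (69 and 0 reads in PLC, 0 in Huh7) did not pass the filter. KRT81 and KRT86 belong to a group of near-identical hair keratins, so their reads are uncertain.

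Of 21 cadherins other than CDH1 and CDH2, 9 were tested, with 1 higher and 5 lower in PLC, against 21.1% higher and 21.9% lower over all genes tested, and a median of -0.97. CDH17, an intestinal cadherin, had 1.80 and 2.73 FPKM in Huh7 and 0.485 and 0.193 in PLC (log2 -2.71, SE 0.49, edgeR adjusted p = 0.000631), and CDH19 (log2 -2.06) and CDH8 (log2 -5.50) were also lower. CDH9 was higher, with 0.968 and 0.877 FPKM against 2.43 and 7.04 (log2 2.18, SE 0.40, edgeR adjusted p = 0.000723). CDH6 and CDH4 were not called (log2 0.42 and -0.30).

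Of 12 EMT transcription factors other than ZEB1 and SNAI2, 4 (TWIST1, FOXC2, GSC and KLF8) had 0 reads in all libraries and 7 were tested, with 3 higher and 3 lower in PLC, against 21.1% higher and 21.9% lower over all genes tested, and a median of 0.51. TWIST2 (140 and 92 reads in PLC) and ETS1 (145 and 44) had 0 reads in Huh7, so the filter had fixed their direction. TWIST2 was at least 32.9-fold and 57.5-fold higher in PLC at 5 and 25 mM, and ETS1 at least 34.1-fold and 27.5-fold. TCF4 had 2693 and 3485 reads in Huh7 and 11 and 18 in PLC, and SOX9, also a bile duct factor, had 32.3 and 36.8 FPKM in Huh7 and 7.31 and 5.75 in PLC (log2 -2.40, edgeR adjusted p = 5.89e-06). SNAI3 was not called (log2 0.51), and PRRX1 did not pass the filter (8, 15, 2 and 4 reads). The paralogs of ZEB1 and SNAI2 were named after their values were seen. SNAI1 was lower in PLC (3.79 and 3.51 against 0.814 and 0.767 FPKM, edgeR adjusted p = 0.000842), and ZEB2 was higher from a low level (0.0537 and 0.0446 against 0.258 and 0.189 FPKM, edgeR adjusted p = 0.0009996).

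Of 24 mesenchymal genes, 20 were tested, with 6 higher and 11 lower in PLC, against 21.1% higher and 21.9% lower over all genes tested, and a median of -2.03. TGFBI, a matrix protein induced by TGF-beta, had 61.1 and 54.2 FPKM in Huh7 and 2.69 and 1.41 in PLC (log2 -4.87, SE 0.28, edgeR adjusted p = 2.20e-08). The matrix genes FSTL1 (log2 -4.23) and COL1A2 (63 and 126 reads in Huh7, 0 in PLC) were lower too. AXL, a receptor tyrosine kinase, was higher, with 0.109 and 0.123 FPKM against 21.0 and 15.4 (log2 7.24, SE 0.35, edgeR adjusted p = 5.75e-09). S100A4 and SPARC were not called. The list named intermediate filament partners of VIM also holds the nuclear lamins LMNA, LMNB1 and LMNB2 and the linker PLEC. Of its 13 genes, 9 were tested, with 2 higher and 2 lower in PLC. This was against 21.1% higher and 21.9% lower over all genes tested, and the median was 0.06. LMNA (log2 0.91) and INA (0 reads in Huh7) were higher, LMNB1 (log2 -1.54) and NES (log2 -1.26) were lower, and PLEC and LMNB2 were not called. Shared glucose calls in edgeR numbered 0 in every list, the marker lists included. At an unadjusted p under 0.05 in edgeR there were 0 to 4 genes a list, against 1979 of all 23217 genes tested. The 4 were among the 10 hepatocyte markers. Other tools were not counted for the lists.

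**Figure D5:**
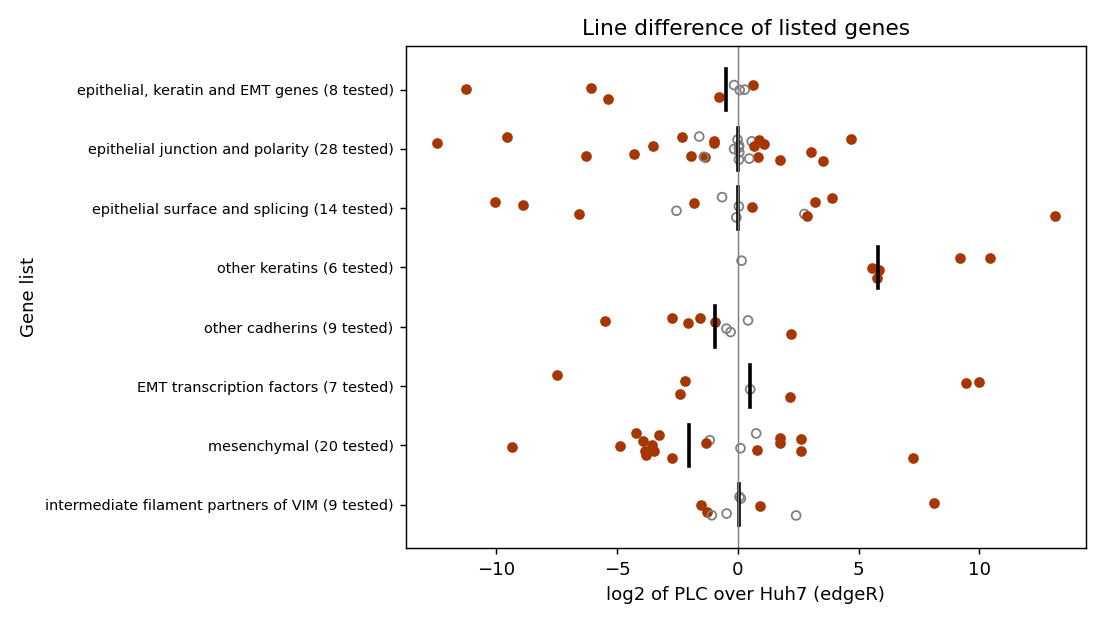
Log2 difference of PLC over Huh7 (edgeR) for the tested genes of each list, with filled points for genes with an adjusted p under 0.05, open points for the others and a bar at the median. The junction and surface lists spread to both sides of 0, the tested other keratins lie at or to the right of 0, and most mesenchymal genes lie to the left.

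Markers of cell types were read beside these results. All 10 hepatocyte markers had reads in Huh7, summing to 5804 and 5926 FPKM, against 1221 and 2097 in PLC. In PLC 8 of 10 were lower and 0 higher, against 21.1% higher and 21.9% lower over all genes tested, with ALB at 2017 and 2039 against 52.4 and 72.3 FPKM, APOA1 and SERPINA1 also lower, and TTR at 4 and 0 reads. HNF4A (log2 0.30) and AMBP (log2 -0.25) were not called. Of 8 bile duct and progenitor markers 5 were higher (against 21.1% higher and 21.9% lower over all genes tested), among them SPP1 (5.68 and 3.59 against 454 and 402 FPKM), CFTR and ANXA4, and 1 (SOX9) was lower, with PROM1 and ONECUT1 not called. KRT19 and EPCAM, known from the same cell types, were low in the line where those markers summed higher (272 and 288 against 793 and 855 FPKM), and SPP1 alone gave 454 and 402 FPKM of the PLC sums. Fibroblast markers summed to 7.85 and 7.74 FPKM in Huh7 and 0.725 and 1.36 in PLC. Of 7, 5 were lower and 1 higher, against 21.1% higher and 21.9% lower over all genes tested. LUM, PDGFRA and PDGFRB were lower and DCN was not called. The 5 lower genes passed the filter through Huh7 alone, so their direction was fixed by the filter. The same holds for TTR among the hepatocyte markers. Endothelial markers summed to 2.37 and 2.55 against 0.135 and 0.310 (PECAM1 was the only tested gene and was lower), and blood markers to 4.28 and 4.86 against 0.818 and 3.02 (CD14 likewise). CD3E and HBB had 0 reads in all libraries. The part of these differences in the values of VIM and CDH2 was not tested.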

How the data were processed

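The values deposited by the authors are raw counts of reads per gene, not normalized. The libraries were directional after rRNA removal. HISAT2, featureCounts and build hg38 are named in the submitters' processing notes, while tool versions, annotation release and strand setting are not given in the sources used here. The table held 59657 lines, of which 5 that repeat a broken gene entry were left out.

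FPKM was computed from the counts, the table's exon lengths and library totals. Counts were tested with edgeR 4.0.16 in R 4.3.3 (filterByExpr, TMM, quasi-likelihood, terms for line and glucose, Benjamini-Hochberg adjustment over 23217 genes). The edgeR standard errors are the size of the log2 difference divided by the square root of the F statistic of the test. Alternatives were DESeq2 1.42.0, limma 3.58.1, other filters and scalings, and leaving out each library (with a term for line only). Intervals used scipy 1.17.1 and cover counting error only. A fold against a library with 0 reads was set against 3 reads in that library and is a bound. An FPKM ratio had 0.1 added to both sides for the thresholds and nothing added for the intervals.

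The genes and lists were chosen with earlier results of these data known. From each list, up to 4 called genes with the largest line difference and 2 uncalled genes with the highest mean FPKM are named; genes that overlap or copy one of the 10 are also named where reads could be shared. Of the genes this rule names, 1 is not reported here.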

Additional observations from a re-analysis of the deposited data

Results flagged for a closer look

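With scaling by library totals, the ratio of 25 mM to 5 mM glucose lay on opposite sides of 1 in the lines for 3 genes. Both counting intervals left out 1. These opposite ratios could not be tested over replicates, since each condition had 1 library. CDH2 had a ratio of 1.08 in Huh7 and 0.774 in PLC. With TMM these were 1.05 and 0.714, still on opposite sides of 1, but their intervals were not computed under TMM. VIM had a ratio of 1.19 in Huh7 and 0.111 in PLC, the latter from 34 and 2 reads. KRT18 had a ratio of 0.942 in Huh7 and 1.08 in PLC, and with TMM the PLC ratio was 0.995, so that it no longer lay on the other side of 1.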

How the results depend on the processing

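KRT19, EPCAM and VIM were tested and called lower in PLC under every alternative that tested them. With at least 10 counts in every library, 5 of the 10 genes were tested and 2 were called. Over all genes, 6590 of 16164 tested were then called, in place of 9974 of 23217. Leaving out a library, with a term for line only, gave 4958 to 10859 called genes and 3 to 6 of the 8 members of the set. CDH1 and KRT18 were not called without either Huh7 library, CDH2 was called without PLC at 25 mM, and ZEB1 changed sign without PLC at 5 mM (log2 differences of -0.077 to 0.24 when 1 library was left out), with no call. The count of shared glucose calls over all genes moved most, from 88 to 526 with no filter on low counts, 197 with DESeq2 and 0 in edgeR with no term for the line (52 at an unadjusted p under 0.05). That last setting also turned the log2 glucose difference of VIM to 0.16. The cause of these changes was not tested.

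No paired analysis was possible because the labels carry no replicate numbers to pair libraries by, and the shared glucose test was already made within lines through its term for line. The depth limits KRT7, SNAI2 and the PLC values of KRT19, EPCAM and VIM, which rest on 0 to 34 reads. The levels of genes relative to each other depend on exon length, and the spread between cultures of 1 condition was not measured.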
